A study of Mus musculus with 6 samples.

Results

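Metallothioneins and antioxidant enzymes were examined in CD11b+ brain cells of Cnr1+/+ and Cnr1-/- mice. The members are the 10 genes Mt1, Mt2, Txnip, Txn1, Prdx1, Prdx5, Gpx1, Gpx4, Sod1 and Sod2, found by their symbol in the deposited expression table. All 10 were among the 19225 genes listed, and 9 of them passed the minimum mean of 10 cpm (CPM, read counts scaled to the size of each library) that was set for testing, which 6659 genes passed in all. Gpx4 did not pass.

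Microglia, the resident macrophages of the brain, were enriched with CD11b magnetic beads from stress-naive male mice, and 1 library was made per mouse (n = 3 per genotype). The study asked whether loss of the cannabinoid receptor CB1, encoded by Cnr1, alters expression in these cells before any stress is applied. The libraries labelled Cnr1-/- come from strain Cnr1 tm1Zim with genotype d/d, a constitutive knockout in which a selection cassette disrupts the coding region in all cells, so a difference need not arise in microglia. The libraries labelled Cnr1+/+ are described as C57BL6/J with genotype wt/wt in the labels and as wild type littermates in the study's methods. The methods place the knockout line on the same background. The labels give an age of 3 months in both groups, and the methods give a younger age for the experiments in general. The cerebellum was removed, myelin was depleted, and the 3′ ends of polyadenylated transcripts were sequenced. The labels name no treatment for either group.

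Metallothioneins are small cysteine-rich proteins that bind zinc and copper, and their transcription rises with metals, glucocorticoids and oxidative stress in many tissues. Superoxide dismutases turn superoxide into hydrogen peroxide, which glutathione peroxidases and peroxiredoxins reduce to water at the expense of glutathione and thioredoxin. Txnip binds thioredoxin and inhibits it, and is itself strongly induced by glucose. In the brain, metallothioneins are best known from astrocytes.

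The effective library sizes, which include the TMM scaling of the deposited values and were worked out from the value of 1 read, lay between 7708810 and 10723800 reads, and 3 reads corresponded to 0.280 to 0.389 cpm. Cnr1 itself, at chr4:33924593-33948831, was listed at 0 cpm in the 3 libraries labelled Cnr1+/+ and at 1.41, 1.21 and 1.79 cpm (13, 13 and 15 reads) in the 3 labelled Cnr1-/-. These few reads go against the labels, although a 3′ tag outside the disrupted coding region would check nothing and the table does not show where the tags lie. Directions below are therefore by label. The library labelled Cnr1-/- replicate 2 stood apart in blood cell transcripts. Of 10 neutrophil markers 9 were listed, and together they reached 4099 cpm there, where the other 5 libraries had 268 to 530 cpm. The 7 erythrocyte markers reached 2342 cpm there, where the others had 136 to 237 cpm. The 12 microglia markers summed to 15257 to 17794 cpm in the libraries labelled Cnr1+/+ and to 16474 to 17505 cpm in those labelled Cnr1-/-, and 0 of them were at 0 throughout. In bulk samples, fewer cells of a type and less RNA per cell cannot be told apart.

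Of the 9 members tested, Txnip alone differed between the labels at a nominal p under 0.05 (limma on log2(cpm + 0.1), a scale that understates the change of low genes). That is 1 of 9 members, where 6.02% of all 6659 genes reached this threshold. The stricter rule asked for an adjusted p under 0.1 and a difference of more than 1.5-fold. By that rule 0 members were called with limma, against 0.0901% of the genes. The groups did not overlap for 1 member, Txnip again, against 11% of all genes tested, and 8.85% were apart in its direction. The median log2 fold change was 0.13 over the members and 0.08 over all genes. Estimates were higher in the libraries labelled Cnr1-/- for 7 members and lower for 2, where 4558 of all 6659 genes were higher, but those of Mt2 and Txn1 turned negative when each library was centred on its median, quantile-normalised or rescaled without mitochondrially encoded genes. The last of these moved the median of all genes by -0.11, and fold changes relative to that median are given where a result turns on it.

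**Figure D1:**
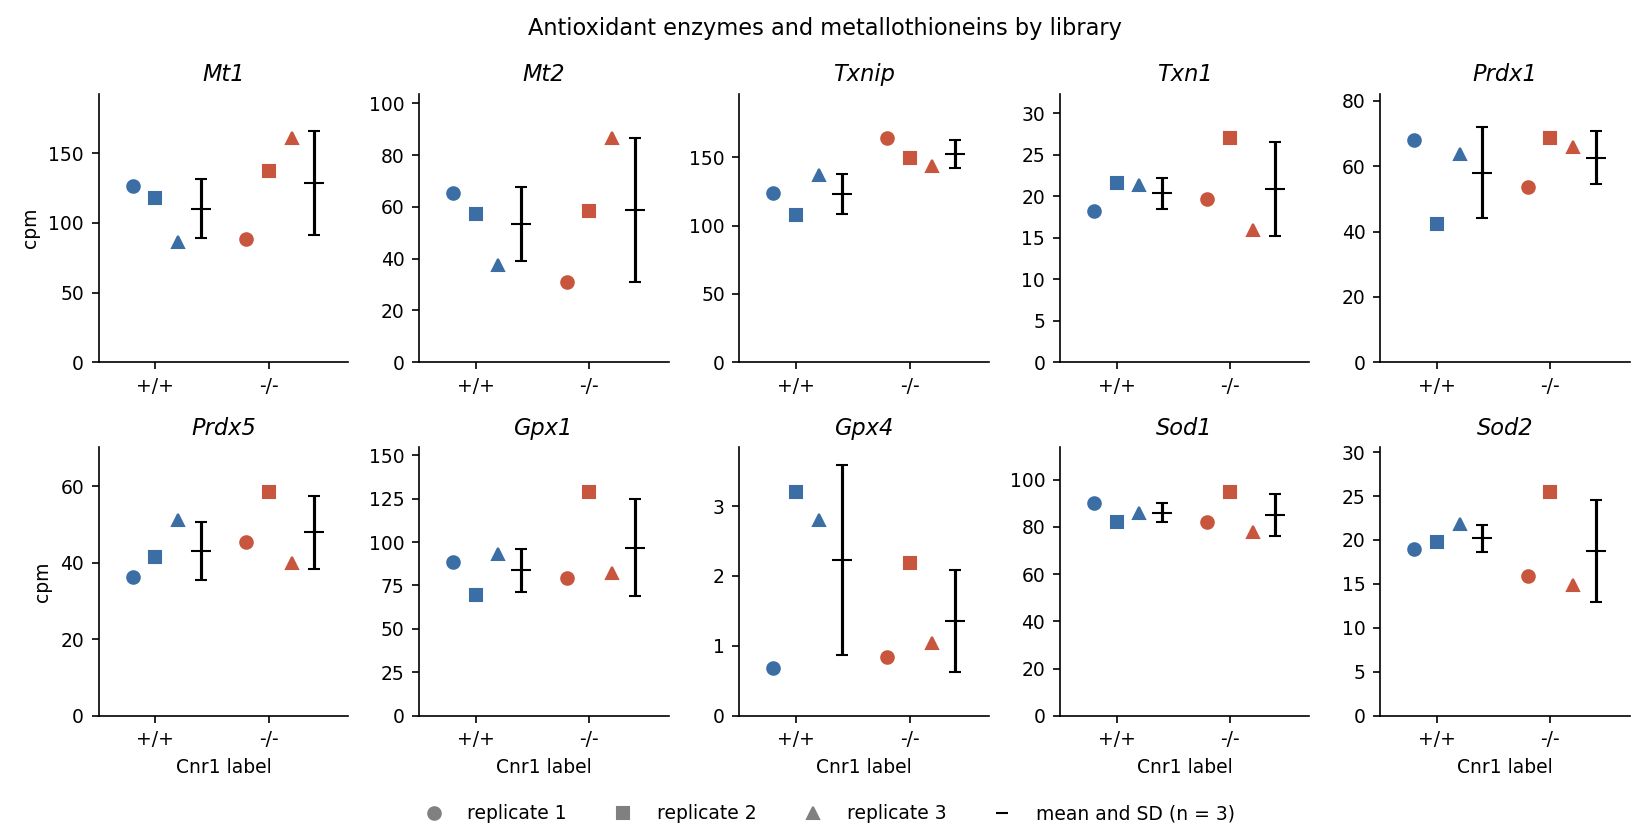
Expression of the 10 members in each library, in cpm on axes that start at 0, with the libraries labelled Cnr1+/+ in blue and those labelled Cnr1-/- in red. Symbols mark the replicate number and bars show the mean and SD (n = 3); the groups are apart only for Txnip, and the squares of the library labelled Cnr1-/- replicate 2 are the highest points of Txn1, Prdx1, Prdx5, Gpx1, Sod1 and Sod2.

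**Figure D2:**
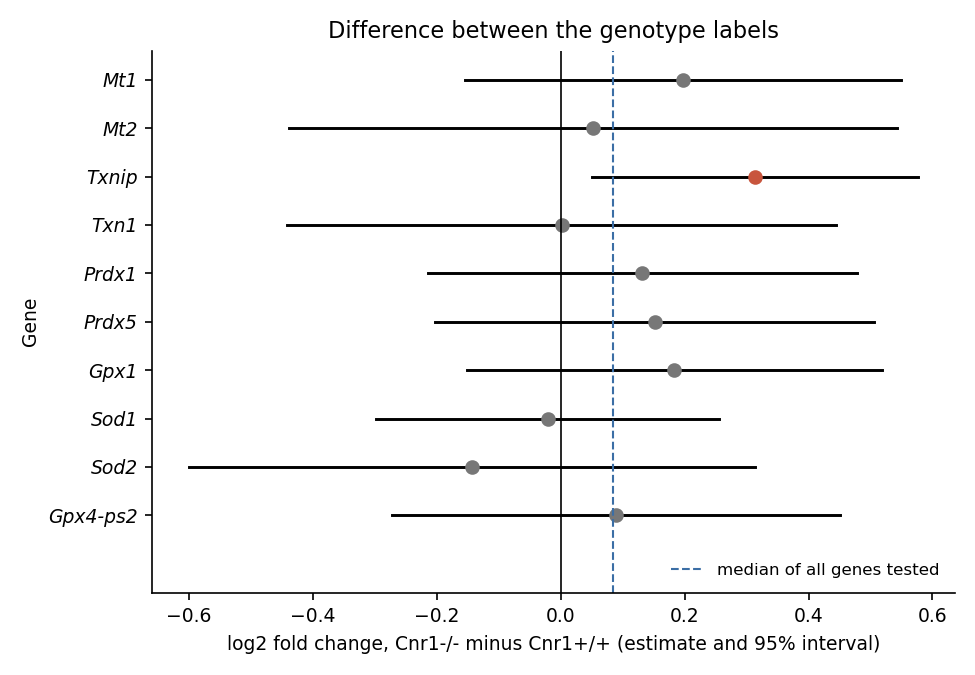
Log2 fold change of each tested member and of the pseudogene Gpx4-ps2, as the libraries labelled Cnr1-/- minus those labelled Cnr1+/+, with 95% intervals from limma. The dashed line is the median of all genes tested (0.08); the interval lies above 0 only for Txnip (red, 0.31), and it includes the dashed line.

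The sequences upstream of Mt1, Mt2 and Txnip are shown because the first pair varied together between mice and the last was the only member with a nominal p under 0.05, which did not pass the adjustment over all genes. They are the RefSeq sequences of build GRCm38.p6, plus strand, 5′ to 3′. Those of Mt2 and Txnip end at the base before the RefSeq start of transcription, which for Mt2 lies before the start in the deposited table, and that of Mt1 ends at the base before its start in the deposited table, which lies before the RefSeq start. Mt1 is shown at chr8:94178839-94179081, Mt2 at chr8:94172368-94172617 and Txnip at chr3:96557707-96557956. Capitals mark the core letters of the metal response element, TGCACNC or TGCGCNC, in the metallothioneins, and the letters CACGNG of the carbohydrate response element in Txnip, searched on both strands.

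Mt1: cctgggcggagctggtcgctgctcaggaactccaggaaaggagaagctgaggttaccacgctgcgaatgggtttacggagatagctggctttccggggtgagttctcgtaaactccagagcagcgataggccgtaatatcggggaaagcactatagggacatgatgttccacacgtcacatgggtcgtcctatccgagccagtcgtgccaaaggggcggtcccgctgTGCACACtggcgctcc

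Mt2: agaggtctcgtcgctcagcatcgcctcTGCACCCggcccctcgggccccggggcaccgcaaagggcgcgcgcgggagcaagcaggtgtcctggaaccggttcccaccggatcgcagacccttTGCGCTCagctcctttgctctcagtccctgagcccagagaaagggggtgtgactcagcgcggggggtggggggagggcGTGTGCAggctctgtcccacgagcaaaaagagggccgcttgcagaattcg

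Txnip: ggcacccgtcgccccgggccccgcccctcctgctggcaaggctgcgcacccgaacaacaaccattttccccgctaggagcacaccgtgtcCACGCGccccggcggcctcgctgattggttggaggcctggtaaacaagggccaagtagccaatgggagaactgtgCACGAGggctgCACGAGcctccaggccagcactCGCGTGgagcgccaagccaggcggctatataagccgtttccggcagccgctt

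In windows of 300 bases, from 250 bases before to 50 bases after the RefSeq start, Mt1 held 3 metal response element cores and Mt2 held 4. Those at positions 3 and 21 in Mt1 and at position 5 in Mt2 lie after that start, outside the stretches shown. At least 1 such core was found in 25.7% of all 32851 windows of this length and at least 3 in 1.97%. In the other members' windows, only Txnip held a core, 1 of TGCGCNC. The Txnip window held 4 matches to CACGNG, of which those at positions -85 and -74 from the start are the letters CACGAG with 5 bases between them. Prdx5 held 3 matches to CACGNG, of which 2 overlap on opposite strands, and Mt2, Prdx1, Gpx4 and Sod2 held 1 each. CACGNG was found in 27.5% of all windows and 3 or more matches in 1.72%. The antioxidant response element core TGACNNNGC, found in 12.4% of windows, was present once each in the windows of Mt2, Prdx1 and Sod1. These matches describe the letters of the windows only.

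The metallothioneins varied between mice and did not separate the labels. Mt1 (chr8:94179082-94180327) stood at 126, 118 and 86.5 cpm in the libraries labelled Cnr1+/+ and at 88.1, 137 and 161 cpm in those labelled Cnr1-/-. The groups overlapped, and replicate 3 of the first and replicate 1 of the second were the low libraries. Group means were 110 ± 21.0 and 129 ± 37.0 cpm (SD, n = 3 each), with a log2 fold change of 0.20 (95% interval -0.15 to 0.55, adjusted p = 0.907). Mt2 (chr8:94172664-94173568), which ends 5513 bases before Mt1 begins, stood at 65.4, 57.3 and 37.5 cpm and at 31.0, 58.6 and 86.5 cpm in the same order. The lowest and the highest value of Mt2 both belonged to libraries labelled Cnr1-/-, and means were 53.4 ± 14.3 and 58.7 ± 27.7 cpm. The log2 fold change of Mt2 was 0.05 (95% interval -0.44 to 0.54, adjusted p = 0.986).

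The metallothioneins differed widely between mice of the same label. The SD of the log2 values of Mt2 within groups was 0.60, above that of 98.6% of the genes tested. That of Mt1 was 0.38, above 88.5%, while the median gene had 0.22. Genes were not matched for level here. The limma intervals above borrow spread from other genes, so those of Mt1 and Mt2 are narrower than their own spread would give. Between libraries Mt2 ranged 2.79-fold and Mt1 1.86-fold, on 286 to 725 and 814 to 1470 reads.

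The pair varied together across the libraries. Pearson's r of their log2 values was 0.96 (n = 6 libraries, exact permutation p = 0.00972) and Spearman's rho was 0.89 (exact permutation p = 0.0333). With Benjamini-Hochberg adjustment over the 45 pairs of members, neither passed (adjusted p = 0.438 and 0.75). Without the 2 libraries farthest from the median of Mt1, r was 0.86, and after removing the group means it was 0.99. The ratio of Mt2 to Mt1 ran from 0.351 in the library labelled Cnr1-/- replicate 1 to 0.538 in replicate 3 of the same label, and Mt2 had the wider range of the pair.

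**Figure D3:**
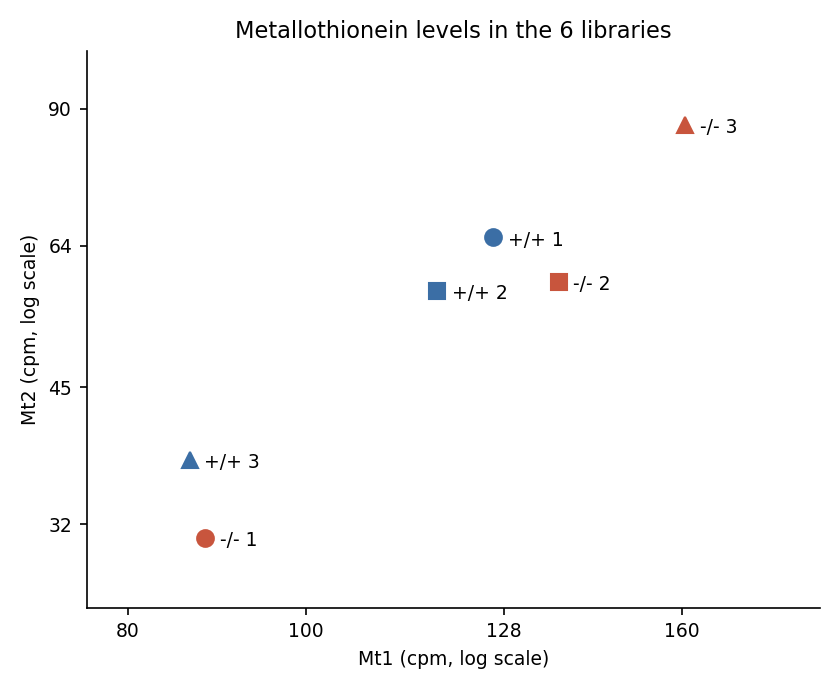
Mt2 against Mt1 in the 6 libraries, in cpm on log scales, with the libraries labelled Cnr1+/+ in blue and those labelled Cnr1-/- in red, each marked with its label and replicate number. The libraries lie along a line (r = 0.96 of log2 values), with 1 library of each label at the low end.

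Astrocyte transcripts, and in part oligodendrocyte transcripts, were low and high in the same libraries as the metallothioneins. The 8 astrocyte markers, 0 of which were at 0 throughout, summed to 467, 513 and 320 cpm in the libraries labelled Cnr1+/+ and to 420, 520 and 595 cpm in those labelled Cnr1-/-. The 2 libraries with the least of them were also the 2 lowest for Mt1 and Mt2, and the library with the most was the highest for both. The 6 oligodendrocyte markers, again with 0 at 0, summed to 632, 836 and 574 cpm and to 400, 621 and 778 cpm, and the same 2 libraries were the lowest, while the highest was Cnr1+/+ replicate 2, which was not the highest for Mt1 or Mt2. The 8 neuron markers, with 0 at 0, summed to 35.2, 35.1 and 31.7 cpm and at 33.1, 34.1 and 37.4 cpm, and again had the same 2 libraries lowest and the same library highest. Other markers ran differently. Endothelial markers were lowest, at 16.5 cpm, in Cnr1-/- replicate 3, and border macrophage markers were highest, at 148 cpm, in Cnr1+/+ replicate 3. The part of any of these transcripts in the spread of Mt1 and Mt2 was not tested.

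By correlation over the 6 libraries, the tested genes other than members most like Mt1 were Klhl25 (r = 0.97), Lonp1, the mitochondrial Lon protease (0.97), and Ndrg2 (0.96). Those most like Mt2 were Ndrg2 (0.98), Yars, a tRNA synthetase (0.97), and Ncapd3, a condensin subunit (0.95). Of all tested genes other than members, 7 reached an r of 0.95 with Mt1 and 3 with Mt2, a level that the pair reached with each other. Ndrg2, a gene that astrocytes express highly, stood at 129, 137 and 85.2 cpm and at 82.6, 126 and 176 cpm in the same library order, low in the same 2 libraries. These correlations were ranked out of 6659 and are a description.

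Mt1 and Mt2 are known glucocorticoid targets, and their estimates of 0.20 and 0.05 can be set beside those of a glucocorticoid-responsive list without them, in a comparison that shares all libraries with the members. Of its 11 tested genes, 7 rose at nominal p under 0.05, against 5.09% of all genes, namely Fkbp5, Ddit4, Tsc22d3, Nfkbia, Sgk1, Per1 and Sult1a1. The study had already reported Fkbp5, Tsc22d3 and Nfkbia as higher in these same libraries. The list was chosen with earlier results known, so this count is a description only. The groups overlapped for 5 of the 7, all but Fkbp5 and Sult1a1, because Cnr1-/- replicate 3, the library with the most Mt1 and Mt2, lay within the range of the libraries labelled Cnr1+/+. By the stricter rule 2 were called, against 0.0901% of all genes, and the median log2 fold change of the list was 0.55.

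Txnip, the thioredoxin-binding inhibitor, was higher in every library labelled Cnr1-/- than in any labelled Cnr1+/+. Txnip (chr3:96557957-96561883) stood at 124, 108 and 137 cpm and at 164, 149 and 144 cpm. The gap between the groups was narrow, from 137 to 144 cpm. Means were 123 ± 14.5 and 152 ± 10.4 cpm (n = 3 each), a 1.24-fold difference (95% interval 1.04 to 1.49) with a log2 fold change of 0.31 and a nominal p of 0.0215. It ranked 175 by p and its adjusted p was 0.792, so it did not pass the correction over all genes. The two-sided exact permutation test of its means gave p = 0.1, the smallest that 3 against 3 allows.

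Txnip was a quiet gene within groups, with an SD of 0.14 on the log2 scale, above that of 19.0% of the genes tested, on 958 to 1601 reads. Relative to the median of all genes its log2 fold change was 0.23. Rescaling without mitochondrially encoded genes shifts all genes of a library alike, so it could not move that value. After this rescaling the change itself was 0.21 (adjusted p = 0.926) and no longer under the nominal threshold. The nominal call was also lost on leaving out Cnr1+/+ replicate 2 (0.22, adjusted p = 0.881) or Cnr1-/- replicate 1 (0.26, adjusted p = 0.859). Quantile normalisation (0.23) ended it too, as did eBayes without trend and a one-factor model without shrinkage, both at an unchanged 0.31. The call held without Cnr1-/- replicate 2, the library with the neutrophil and erythrocyte transcripts, at a log2 fold change of 0.33 (adjusted p = 0.999). The genes other than members most like Txnip over the 6 libraries were Pomp, a proteasome assembly factor (r = 0.99), Ddb1, an adaptor of CUL4 ubiquitin ligases (0.99), and Rnf150 (0.98), and 21 such genes reached an r of 0.95.

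**Figure D4:**
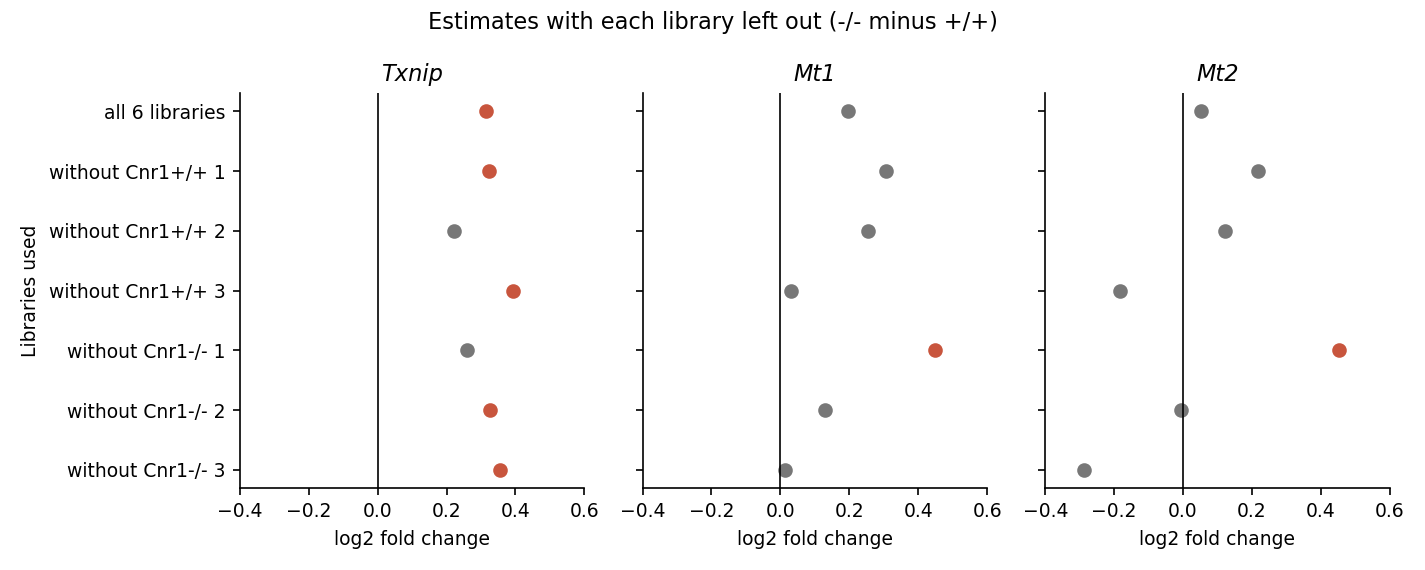
Log2 fold change of Txnip, Mt1 and Mt2, as the libraries labelled Cnr1-/- minus those labelled Cnr1+/+, with all 6 libraries and with each left out in turn; red points have a nominal p under 0.05. Txnip stays between 0.22 and 0.39, Mt1 between 0.01 and 0.45, and Mt2 runs from -0.29 to 0.45.

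Leaving out 1 library moved the metallothioneins more than Txnip. With Cnr1-/- replicate 1 left out, Mt1 and Mt2 both came to a log2 fold change of 0.45 and both passed the nominal threshold, each with an adjusted p of 0.856. Without replicate 3 of the same label, Mt2 was at -0.29 and Mt1 at 0.01.

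Txn1, the cytosolic thioredoxin that Txnip binds, did not differ between the labels beyond its spread. Txn1 (chr4:57943373-57956411) stood at 18.2, 21.5 and 21.4 cpm and at 19.6, 27.0 and 15.9 cpm. Its highest and lowest libraries were both labelled Cnr1-/-, and its log2 fold change was 0.00 (95% interval -0.44 to 0.44, adjusted p = 1.00). The estimate was -0.20 when Cnr1-/- replicate 2 was left out.

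The peroxiredoxins among the members overlapped between the labels. Prdx1 (chr4:116685544-116700822), a cytosolic peroxidase that thioredoxin recharges, stood at 68.1, 42.2 and 63.8 cpm and at 53.5, 68.5 and 65.9 cpm. A single library, labelled Cnr1+/+ replicate 2, was low, and without it the log2 fold change of 0.13 (95% interval -0.21 to 0.48, adjusted p = 0.946) became -0.08. Prdx5 (chr19:6906697-6910106), found in mitochondria, peroxisomes and cytosol, stood at 36.3, 41.4 and 51.2 cpm and at 45.4, 58.5 and 39.8 cpm. Its log2 fold change was 0.15 (95% interval -0.20 to 0.51, adjusted p = 0.941), and it came to -0.0015 on leaving out Cnr1-/- replicate 2. Of the 50-base windows at the 3′ end of the Prdx1 transcripts, 21.3% occur in other genes, of which the pseudogene Gm21399 was listed at no more than 0.865 cpm.

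Gpx1, the cytosolic glutathione peroxidase, had 1 high library. Gpx1 (chr9:108338903-108340343) stood at 88.7, 69.6 and 93.0 cpm and at 79.5, 129 and 82.2 cpm. The high value belonged to the library labelled Cnr1-/- replicate 2, and the other 2 of that label lay within the range of those labelled Cnr1+/+. Means were 83.8 ± 12.4 and 96.8 ± 27.8 cpm, with a log2 fold change of 0.18 (95% interval -0.15 to 0.52, adjusted p = 0.908). Without that library it was -0.04.

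Gpx4, the glutathione peroxidase that reduces lipid peroxides in membranes, was listed at fewer reads than its processed pseudogene. Gpx4 (chr10:80047166-80056439) stood at 0.684, 3.20 and 2.80 cpm and at 0.836, 2.19 and 1.04 cpm, or about 5, 32, 27, 8, 23 and 9 reads. Of the 496 windows of 50 bases, the read length, in the last 500 bases of its 3 protein-coding transcripts, 446 (89.9%) also occur in Gpx4-ps2, a transcribed processed pseudogene at chr10:45875291-45876086. Gpx4-ps2 stood at 31.5, 29.9 and 33.8 cpm and at 30.8, 41.5 and 30.1 cpm. The Gpx4 row therefore held 2.13% to 9.67% of the sum of both rows, and reads were divided between them by expectation-maximisation, so the level of either row is uncertain. Summed, an alternative chosen after seeing the data, they gave 34.0 ± 2.33 and 35.5 ± 7.09 cpm, with a log2 fold change of 0.05 (95% interval -0.31 to 0.41, adjusted p = 0.986).

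**Figure D5:**
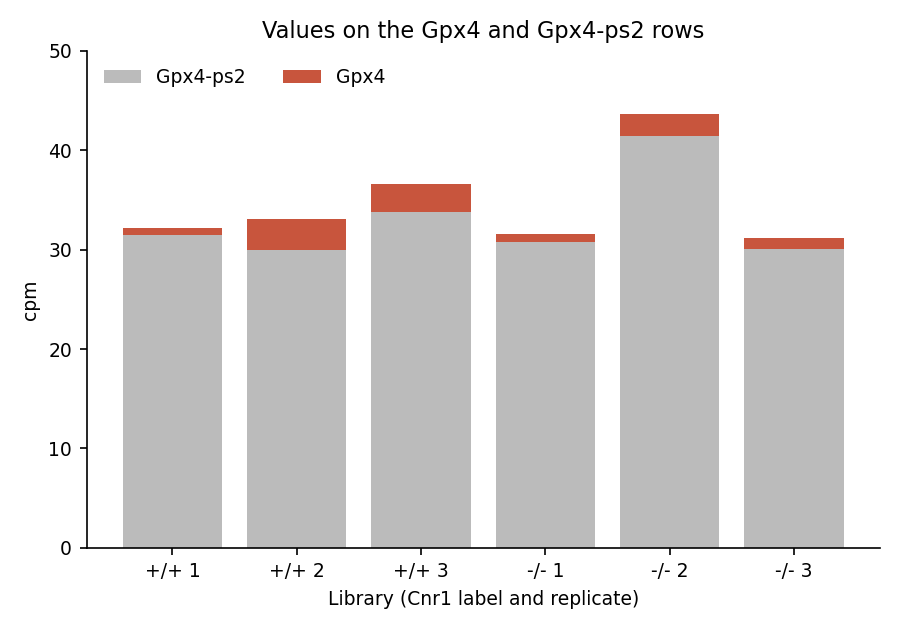
Values of Gpx4 (red) stacked on those of its processed pseudogene Gpx4-ps2 (grey) in each library, in cpm from 0. Nearly all of each bar is the pseudogene's row, with Gpx4 at 0.684 to 3.20 cpm, and the library labelled Cnr1-/- replicate 2 has the tallest bar.

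The superoxide dismutases did not separate the labels. Sod1 (chr16:90220754-90226329), the copper-zinc enzyme of the cytosol, stood at 90.1, 82.0 and 85.8 cpm and at 82.2, 94.8 and 77.8 cpm. It was the steadiest member, with an SD of 0.11 on the log2 scale within groups, above that of 10.4% of the genes tested. Its log2 fold change was -0.02 (95% interval -0.30 to 0.26, adjusted p = 0.990), so a difference beyond these bounds was not detected. The pseudogene Gm8566, listed at 6.47 to 10.1 cpm, shares 30.2% of its 3′ windows. Sod2 (chr17:13006846-13040063), the manganese enzyme of mitochondria, stood at 18.9, 19.8 and 21.9 cpm and at 16.0, 25.5 and 14.9 cpm. The lowest pair and the highest library were all labelled Cnr1-/-, and the log2 fold change was -0.14 (95% interval -0.60 to 0.31, adjusted p = 0.954). Without Cnr1-/- replicate 2, Sod1 was at -0.10 and Sod2 at -0.38. Without replicate 3 of that label they were at 0.04 and 0.0006.

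The library labelled Cnr1-/- replicate 2 was the highest for 6 of the 9 tested members, namely Txn1, Prdx1, Prdx5, Gpx1, Sod1 and Sod2, and it was the highest for 31.7% of all genes tested. The median log2 ratio of this library to the others was 0.28 over the members and 0.15 over all genes. The part of its neutrophil and erythrocyte transcripts in these values was not tested. Of the members, 4 further pairs correlated at an unadjusted p under 0.05, Txn1 with Sod2 (r = 0.90), Sod1 with Sod2 (0.83), Txn1 with Prdx5 (0.82) and Gpx1 with Sod1 (0.81), with exact permutation p from 0.0236 to 0.0486 and an adjusted p of 0.438 each. Without the 2 libraries farthest from the median of the first gene, these were 0.51, 0.32, 0.68 and 0.67.

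Beyond the members, 100 genes of redox and metal pathways were considered, of which 58 were tested. Of these, 3 rose and 2 fell at a nominal p under 0.05, against 5.09% of all genes higher and 0.931% lower, and their median log2 fold change was 0.06. Adjusted p lay between 0.690 and 0.821 for these 5. Without the library labelled Cnr1-/- replicate 2, 1 gene, Mafg, was called, and without Cnr1-/- replicate 3 it was 1 as well, Prdx6.

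Prdx6, a peroxiredoxin that draws on glutathione, had the smallest p of these. It stood at 28.1, 21.0 and 19.8 cpm and at 25.4, 39.9 and 37.3 cpm, with a log2 fold change of 0.56 (adjusted p = 0.690). The groups overlapped, and on leaving out Cnr1-/- replicate 2 the change was 0.44 and missed the nominal threshold. Prdx2, the only other peroxiredoxin tested besides the members, was at 0.06 (adjusted p = 0.979).

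The glutathione list had 14 tested genes, of which 2 fell and 0 rose at a nominal p under 0.05, with a median of 0.06. Of all genes 0.931% fell and 5.09% rose at this threshold. G6pdx, which supplies NADPH for reducing glutathione, stood at 11.8, 14.2 and 12.1 cpm and at 7.90, 9.05 and 8.44 cpm (log2 fold change -0.58, adjusted p = 0.821). Glrx3, a glutaredoxin, stood at 32.6, 26.5 and 25.4 cpm and at 21.9, 21.9 and 20.2 cpm (-0.39, adjusted p = 0.821). The groups of both were apart, where 2.13% of all tested genes were apart in this direction, and both calls held under the 3 rescalings named above. With 1 library left out, G6pdx was tested in 5 fits, where it kept log2 fold changes of -0.62 to -0.53 and missed the nominal threshold. Without Cnr1+/+ replicate 2 its mean fell under the minimum. Glrx3 ran from -0.46 to -0.28 and was called only without Cnr1+/+ replicate 3. The most abundant tested genes of this list, Slc3a2 and Pgd, were at 0.21 and 0.20 and did not pass the test.

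Of 15 tested genes of the NRF2 pathway, which drives antioxidant transcription, 2 rose and 1, G6pdx again, fell at a nominal p under 0.05. Of all genes 5.09% rose and 0.931% fell at this threshold. The median of the list was 0.13. Mafg, a small MAF partner of NRF2, stood at 140, 135 and 122 cpm and at 163, 153 and 162 cpm (log2 fold change 0.27, adjusted p = 0.809). Blvrb, biliverdin reductase B, stood at 14.4, 14.9 and 21.3 cpm and at 18.5, 25.4 and 25.4 cpm (0.46, adjusted p = 0.821). The groups were apart for Mafg, as for 8.85% of all tested genes in this direction, and overlapped for Blvrb. Neither call held under the 3 rescalings, where Mafg was at 0.16 to 0.19 and Blvrb at 0.35 to 0.39. The abundant ferritin genes Fth1 and Ftl1 were at 0.14 and 0.01.

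In the remaining lists no gene was called in the comparison as described, although Pstk, of selenoprotein synthesis, was called under the 3 rescalings, with eBayes without trend and without Cnr1-/- replicate 1, Slc39a1 without mitochondrially encoded genes and Txndc17 without Cnr1+/+ replicate 3. These were 12 tested genes of metallothionein and zinc handling (median 0.04), 7 of the thioredoxin system (0.06), 3 of superoxide and hydrogen peroxide removal (0.12) and 9 of selenoprotein synthesis and selenoproteins (0.01). Their most abundant genes were the zinc transporters Slc39a1 (-0.19) and Slc39a7 (0.07), Txndc12 (-0.05) and Txndc9 (0.30), Park7 (0.12) and catalase, Cat (0.10), and Selenop (0.01) and Selenos (0.05), as log2 fold changes with adjusted p of 0.892 or more.

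Among genes of these and the glucocorticoid-responsive lists below the minimum mean, Gpx3, the secreted glutathione peroxidase at chr11:54902453-54910377, was chosen after its values were seen. It was listed with 1, 3 and 6 reads in the libraries labelled Cnr1+/+ and with 40, 29 and 36 reads in those labelled Cnr1-/-. Means were 0.353 ± 0.255 and 3.78 ± 0.928 cpm, and the groups did not overlap, which held for 3 of the 44 list genes below the minimum and for 9.71% of all genes below it. In the fit without a filter its log2 fold change, which depends on the pseudocount at so few reads, was 3.22 (SE 0.785, adjusted p = 0.156), rank 22 of 19225 genes, of which 5.17% had a nominal p under 0.05. Of the 44 genes, 2 had such a p, the other being Msrb1, a selenium-containing methionine sulfoxide reductase. Msrb1 had 46, 42 and 29 reads and 64, 200 and 48 reads, the highest value in the library labelled Cnr1-/- replicate 2.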

How the data were processed

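The authors aligned 3′ tag reads to mm10 with STAR, used expectation-maximisation in Partek for reads shared between genes and deposited TMM-normalised CPM (cpm) per gene. Counts could not be recovered, since 83.4% to 85.5% of values above 0 were whole multiples of 1 read (tolerance 0.02), so count tests were not used. TMM makes values relative to the bulk of genes, and 3′ tags are not scaled by length. The 6 libraries were grouped by their labels. The limma p-values and intervals use a spread between mice that eBayes draws largely from other genes of similar level. A one-factor model without shrinkage, which uses each gene's own mice only, gave Txnip a p of 0.052 against 0.0215. Genes with a mean of at least 10 were fitted with limma 3.58.1 in R 4.3.3 (lmFit, eBayes with trend) on log2(cpm + 0.1), with the genotype label as sole term, and p-values were adjusted by Benjamini-Hochberg over 6659 genes. The step was tested on simulated data. Correlations and single values used exact permutation tests (scipy 1.17.1, Python 3.11.15). Figures were drawn with matplotlib 3.10.9.

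Named genes are the members, Cnr1, the pseudogene rows of members, list genes with a nominal p under 0.05 or among the 2 most abundant tested of their list, and the 3 genes other than members most correlated with Mt1, Mt2 and Txnip. Gpx3, Msrb1, Pstk, Txndc17, Gm8566 and Gm21399 were named after their values were seen. Members and lists were chosen with earlier results of these data known. Coordinates are those of the deposited table, which matched GENCODE vM21 for 18870 symbols, of which 18704 had the same span. Shared 3′ sequence was counted as windows of 50 bases in the last 500 bases of each protein-coding transcript. Intervals given by read counts cover counting error only.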

Additional observations from a re-analysis of the deposited data

How the results depend on the processing

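With 3 mice per label, leaving out 1 library turned the sign of 7 of the 9 tested members, and depth limits Gpx3, which has at most 40 reads. Results of the members were recomputed under other pseudocounts, filters, scalings, weights and models and without each library. The same was done for counts over all genes and the redox and metal lists. Summing Gpx4 with Gpx4-ps2 was added after the data were seen. Pairs were recomputed with centring and within labels only. Of these values, 211 kept their direction and side of the threshold or, for counts, stayed within 1.5 times. Of the others, 19 changed sign, 17 counts moved further, 6 lost and 2 gained a call. Other filters, weights and models, and the summing, left the log2 fold changes of the members unchanged, so their direction could not turn there. The number of members with a nominal p under 0.05 fell from 1 to 0 with quantile normalisation (Txnip at 0.23), rescaling without mitochondrially encoded genes, eBayes without trend and a one-factor model without shrinkage, and was 0 to 2 with a library left out; the cause was not tested. All genes called numbered 401, against 993 unfiltered, 263 at a minimum mean of 20, and 251 (without Cnr1-/- replicate 2) to 600 (without Cnr1+/+ replicate 3). Of all calls 84.5% were higher in the libraries labelled Cnr1-/-, against 52.5% with centring, 45.3% with quantile normalisation and 35.6% with rescaling. List genes called numbered 5, against 2 with a minimum mean of 20, 3 without shrinkage, and 1 to 4 with a library left out. With the minimum mean of 20, G6pdx and Blvrb dropped out of the test. Glrx3 stayed in it at an unchanged log2 fold change of -0.39 and missed the nominal threshold. Pairs correlated at p under 0.05 numbered 5, against 3 with centring and 7 within labels. The 7 cannot be set against the 5, because values with the group means removed were permuted across both labels. The sign turned with centring, quantile normalisation and rescaling for Mt2 (-0.0229, -0.0345 and -0.0550) and Txn1 (-0.0741, -0.0655 and -0.106), and with rescaling for Gpx4-ps2 (-0.0178). With a library left out, estimates ran from -0.288 to 0.452 for Mt2, -0.202 to 0.179 for Txn1, -0.0824 to 0.262 for Prdx1, -0.0015 to 0.285 for Prdx5, -0.0409 to 0.308 for Gpx1, -0.103 to 0.0391 for Sod1, -0.384 to 0.0006 for Sod2 and -0.0587 to 0.172 for Gpx4-ps2. Same-numbered libraries of the 2 labels had correlations of deviations of -0.06, -0.03 and -0.03, and differently numbered ones of -0.004 to 0.04. With 3 libraries per label this check cannot exclude that mice were paired by litter or batch. With the replicate block 421 genes were called, and Txnip kept its call (adjusted p = 0.739).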
